A study of Mus musculus with 6 samples.

Results

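The 33 genes described here encode enzymes of the tricarboxylic acid (TCA) cycle, of pyruvate's entry into it, and of the pentose phosphate pathway, together with Acod1, the enzyme that makes itaconate. They were chosen by gene symbol, not by their values, and all 33 had a row among the 17217 rows of the deposited table. The table holds TPM, an abundance scaled by gene length and library. The 6 libraries came from RNA of mouse bone marrow-derived macrophages, cells grown from the marrow of 8-week-old mice with 30 ng/mL of the growth factor M-CSF. All 6 libraries, controls included, were exposed to 100 ng/mL lipopolysaccharide (LPS), the bacterial wall component, for 24 h. The 3 libraries titled Control carry the genotype label Con (Cd74 wild type) and the 3 titled Knockout carry KO (Cd74 deleted in the mouse). The question was how macrophage transcription differs without CD74, which chaperones class II MHC molecules and binds the cytokine MIF. Genotype was read from titles and genotype labels, because the shared protocol text names wild-type mice as the marrow source for every library. No label says whether the replicates are separate mice, so p-values may measure technical spread. The labels put the Control libraries in batch 1 and the Knockout libraries in batch 2; genotype and batch therefore cannot be told apart in any comparison below. Values of single libraries are given in the order of replicates 1, 2 and 3.

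In the TCA cycle, acetyl groups derived from pyruvate join oxaloacetate to form citrate, and a run of dehydrogenases then returns oxaloacetate while passing electrons to the respiratory chain. The pentose phosphate pathway draws on a glycolytic sugar phosphate instead: its oxidative branch yields NADPH, and its non-oxidative branch makes ribose phosphate and shuttles carbon back to glycolysis. Macrophages exposed to LPS are known for rerouting the cycle, with induced Acod1 turning cis-aconitate into itaconate, and for using NADPH for oxidant production and antioxidant defence.

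The libraries held 36445458 to 59236597 reads recovered from the TPM values. Cd74 itself was tabulated at 593 to 632 TPM in Control and 63.2 to 65.3 TPM in Knockout libraries, the direction of the labels. Its 6 values were not all whole reads at any single gene length searched, as for 28 rows of the table in all. None of the 33 enzyme genes was among those rows. The 6 values of each were whole reads, at the annotated length for 32 genes and at another length (2662 bp) for Mdh1. The macrophage genes Cd68 (1812 ± 68.0 and 1903 ± 21.2 TPM in Control and Knockout, SD, n = 3 each) and Lyz2 were abundant, but 5 of the 14 macrophage markers, Mertk, C1qa, C1qb, C1qc and Maf, had no row, and Mrc1 was under 1 TPM. The markers summed to 10600 to 11150 TPM in Control and 13940 to 15190 TPM in Knockout libraries, and Itgam, Lyz2 and Csf1r were higher and Adgre1 lower in Knockout. Lyz2 alone stood at 5373 ± 355 TPM in Control and 8658 ± 778 TPM in Knockout (SD, n = 3 each), so it weighs heavily in these sums. Of 5 osteoclast markers the 4 with a row (Ctsk, Acp5, Dcstamp and Ocstamp) were all higher, with sums of 172 to 183 TPM in Control and 242 to 287 TPM in Knockout libraries. The mast cell or basophil list had a row for Hdc alone of 5 genes, at 21.9 to 31.2 TPM in Control and 4.38 to 9.03 TPM in Knockout libraries, where it was lower. The 8 neutrophil markers summed to 17.6 to 18.1 and 23.8 to 29.4 TPM, with S100a8 higher, Csf3r lower and S100a9, Ly6g, Mpo, Elane and Ltf without a row. The 9 dendritic cell markers summed to 5.63 to 8.39 and 6.69 to 8.23 TPM, with 0 called and H2-Aa, H2-Ab1 and H2-Eb1 under 1 TPM. The B cell list (Ighm higher, Ms4a1 and Cd79b without a row), T cell list (Lck lower, the CD3 genes without a row), erythroid list and stromal list summed to at most 13.9 TPM in any library. The part of these markers in the results below was not tested. In bulk RNA, fewer cells of a type and less RNA per cell cannot be told apart.

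Among the enzyme genes that passed the test, most were somewhat higher in Knockout than in Control libraries, and Acod1 and Dld were lower. Of 32 genes tested, 15 were higher and 2 lower, and 15 were not called (limma, Benjamini-Hochberg adjusted p under 0.05 over all 13034 rows of mean TPM of at least 1). Over all tested rows 18.5% were called higher and 10.1% lower, while 46.9% of the enzyme genes were called higher and 6.25% lower. The enzyme genes were more abundant than most rows, with a median rank of 1629 among 17217 by mean TPM. Whether their level had a part in these shares was not tested. The median log2 fold change, on the log2(TPM + 1) scale used throughout, was 0.17 for the enzyme genes and 0.04 for all tested rows. The differences were small, from -0.37 for Acod1 to 0.47 for Pgd. In 19 of the 32 every Knockout library lay above every Control library (30.2% of all tested rows), and in 3 every one lay below (19.8% of all tested rows).

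The count of 15 depends on scaling and on single libraries. It was 7 after median-of-ratios or upper-quartile scaling of the libraries, which moved the share of higher among all calls from 64.7% to 51.5% and 52.3%. Without Control replicate 1, 2 or 3 it was 6, 6 or 4, and without Knockout replicate 2 it was 7. Over all 13034 tested rows 2406 were called higher as deposited, and 1821 and 1872 under those scalings. Without Control replicate 1, 2 or 3 that count was 1408, 1728 or 1313, and without Knockout replicate 2 it was 1584. The count of 2 lower genes was 1, 1 or 0 without Control replicate 1, 2 or 3, and 1 with no filter on low values. In the same settings the 1313 lower calls over all rows became 721, 772 or 669, and 1159. The genes Idh3a, Me2 and Tkt kept their calls in all 14 alternatives. Knockout replicate 3 had the highest value of its group in 24 of the 32 genes, and Control replicate 2 in 18. Control replicate 1 and Knockout replicate 1 each had the lowest value of their group in 17. These positions were not counted over all rows.

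**Figure D1:**
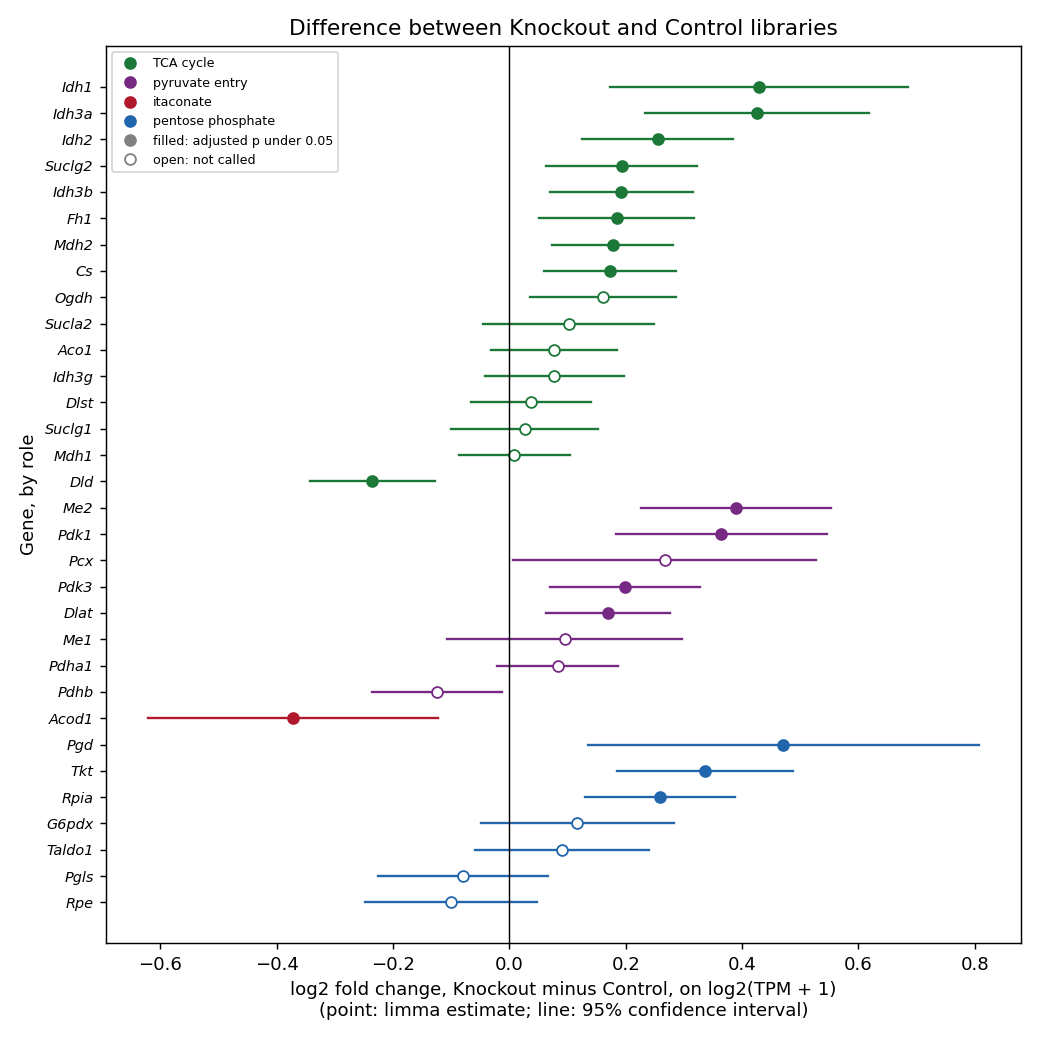
Log2 fold change (Knockout minus Control, on log2(TPM + 1)) of the 32 tested enzyme genes with its 95% confidence interval, 3 libraries per group, grouped and coloured by role; filled points passed an adjusted p of 0.05. Points of 27 genes lie above 0, with Acod1 (-0.37) and Dld (-0.24) the filled points below it.

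Levels spanned a wide range. Acod1 ranked 17 among all 17217 rows by mean TPM and held 53.9% to 57.1% of the TPM of the 33 genes in Control libraries and 40.4% to 49.4% in Knockout libraries. G6pdx and Taldo1, each of the pentose phosphate pathway, came next with means of 383 and 381 TPM over the 6 libraries, followed by Mdh2, Dld and Mdh1. At the other end, Pcx stood at 7.37 and 9.14 TPM in Control and Knockout. Pdk2 was too low to test, at 0.391, 1.20 and 0.687 TPM in Control and 0.600, 0.322 and 0.338 TPM in Knockout, or 14 to 61 reads.

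**Figure D2:**
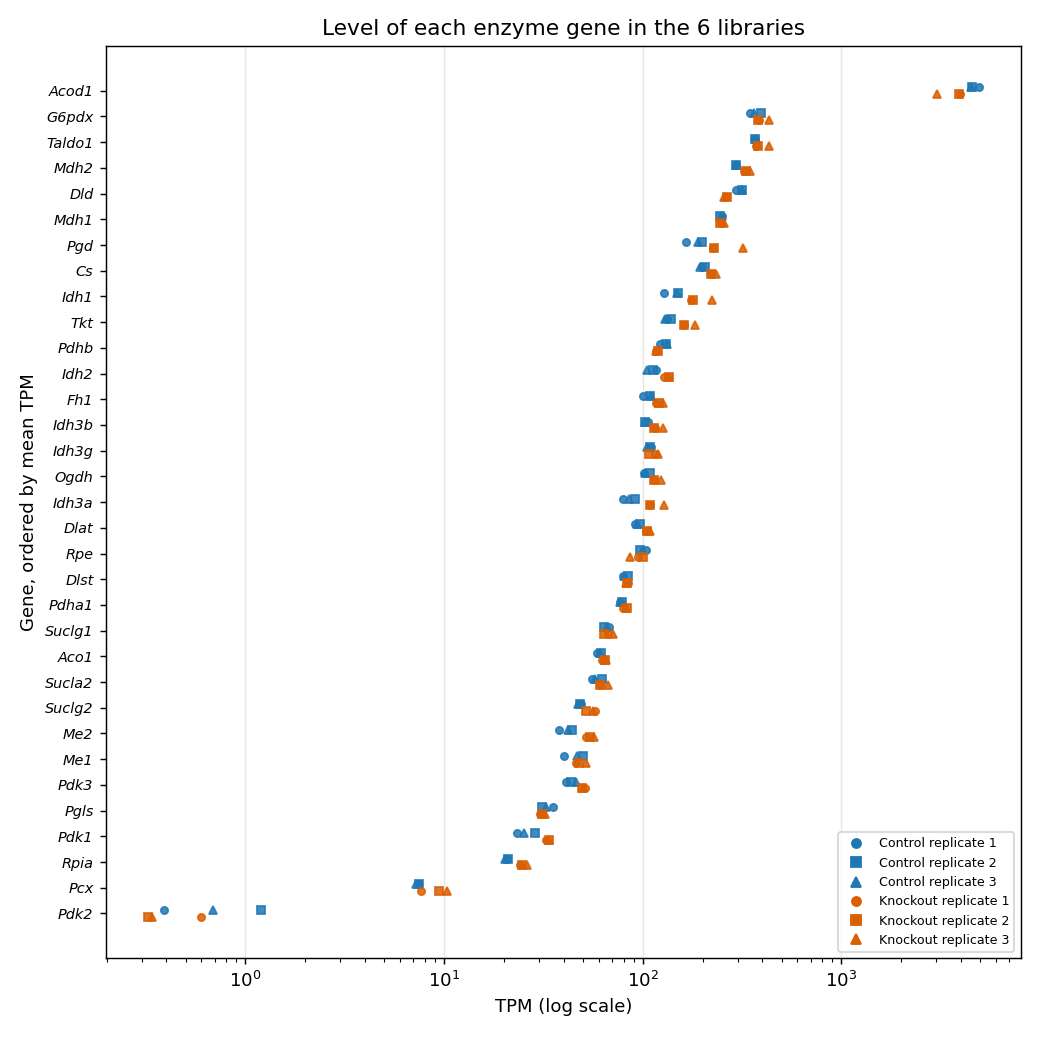
TPM (log axis) of the 33 enzyme genes in each of the 6 libraries, ordered by mean TPM; blue is Control, orange Knockout, and the symbol gives the replicate. Acod1 lies above all others in every library, followed by G6pdx and Taldo1, and Pdk2 reaches at most 1.20 TPM.

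Among the 16 TCA cycle genes 8 were higher, 1 was lower and 7 were not called. The shares were 50% higher and 6.25% lower, beside 18.5% and 10.1% of all tested rows. The summed TPM of the 16 was 2127 ± 37.5 in Control and 2314.5 ± 92.1 in Knockout libraries (SD, n = 3 each). The largest rises were those of the isocitrate dehydrogenase genes Idh3a and Idh1. Idh3a, the catalytic subunit of the NAD-dependent mitochondrial enzyme (chr9:54586334-54604661, GRCm38, plus strand), stood at 79.8, 91.5 and 85.3 TPM in the Control libraries and 109, 109 and 128 TPM in Knockout. Its groups did not overlap, and it rose 1.35-fold (log2 fold change 0.43, SE 0.08, limma adjusted p = 0.0112). Without Knockout replicate 3 the Idh3a difference was 0.35 (limma adjusted p = 0.0108). Idh1, the cytosolic NADP-dependent enzyme, stood at 128, 150 and 149 TPM in Control and 174, 179 and 224 TPM in Knockout. It also rose 1.35-fold (0.43, SE 0.11, limma adjusted p = 0.0264), with Control replicate 1 and Knockout replicate 3 the extremes. The call was lost without Control replicate 1, 2 or 3 (limma adjusted p = 0.0838, 0.0505 and 0.0611). Without Control replicate 1 and Knockout replicate 3 together, an alternative chosen after the data were seen, the Idh1 difference was 0.24 (limma adjusted p = 0.00465).

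Idh2, the mitochondrial NADP-dependent counterpart, rose from 111 ± 6.06 to 133 ± 4.34 TPM (SD, n = 3 each), a call lost without Control replicate 3 or Knockout replicate 2 (limma adjusted p = 0.0572 and 0.0555). Of the regulatory subunits of the NAD-dependent enzyme, Idh3b rose by 0.19 while Idh3g was not called, at 108 ± 2.03 and 114 ± 5.60 TPM. All 3 subunits are part of the native enzyme. Within each library the log2 ratio of Idh3g to Idh3a was 0.45, 0.25 and 0.31 in Control and 0.07, -0.01 and -0.11 in Knockout. Such a ratio does not depend on how a library is scaled. The groups did not overlap, with an exact two-sided permutation p of 0.1, the smallest that 3 against 3 libraries can give, and an adjusted p of 0.15 over the 15 pairs compared.

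Entry into the cycle and its closing steps rose by smaller amounts. Cs, citrate synthase, went from 199 ± 5.83 to 225 ± 8.59 TPM, Fh1, fumarase, from 107 ± 5.31 to 121 ± 5.24 TPM and Mdh2, the mitochondrial malate dehydrogenase, from 295 ± 0.695 to 334 ± 12.7 TPM (SD, n = 3 each). The calls of Cs, Fh1, Mdh2, Idh3b and Suclg2 ended under both scalings, and also without any 1 of the 3 Control libraries. Without Control replicate 1 and Knockout replicate 3, Fh1 was at 0.11 and was not called (limma adjusted p = 0.0678). Mdh1, the cytosolic malate dehydrogenase, was not called, at 248 ± 2.80 and 250 ± 5.02 TPM, with a 95% interval of the log2 difference from -0.09 to 0.10. The log2 ratio of Mdh1 to Mdh2 was -0.24, -0.27 and -0.24 in Control and -0.38, -0.43 and -0.45 in Knockout, with no overlap (exact permutation p = 0.1).

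Succinyl-CoA synthetase joins the shared subunit of Suclg1 to either that of Sucla2, which gives the ATP-forming enzyme, or that of Suclg2, which gives the GTP-forming enzyme. Suclg2 rose from 48.0 ± 0.922 to 55.1 ± 3.11 TPM, a call lost in 10 of 14 alternatives. Sucla2, at 58.5 ± 3.47 and 62.8 ± 3.24 TPM, and Suclg1, at 66.0 ± 1.72 and 67.3 ± 3.50 TPM, were not called, and the ratio of Sucla2 to Suclg2 overlapped between groups. Aco1, a cytosolic aconitase that also binds iron-responsive RNA elements, was not called, at 60.6 ± 1.40 and 64.0 ± 1.65 TPM, although its groups did not overlap.

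Dld, the dihydrolipoyl dehydrogenase shared by the pyruvate and oxoglutarate dehydrogenase complexes (chr12:31331277-31351453, GRCm38, minus strand), went the other way. It stood at 295, 314 and 316 TPM in Control and 262, 266 and 257 TPM in Knockout. The fall was -0.24 (SE 0.05, limma adjusted p = 0.0116), and the call was lost in 1 of 14 alternatives, without Control replicate 3 (limma adjusted p = 0.0513). Its partners in the oxoglutarate dehydrogenase complex were not called. Ogdh, which carries out the decarboxylation, stood at 105 ± 4.18 and 117 ± 5.25 TPM without overlap between groups, and Dlst, the succinyl transferase, at 81.4 ± 2.17 and 83.5 ± 1.02 TPM with overlap. Within libraries the log2 ratio of Dld to Ogdh was 1.54, 1.53 and 1.62 in Control and 1.20, 1.22 and 1.06 in Knockout, a pair chosen after its values were seen.

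**Figure D3:**
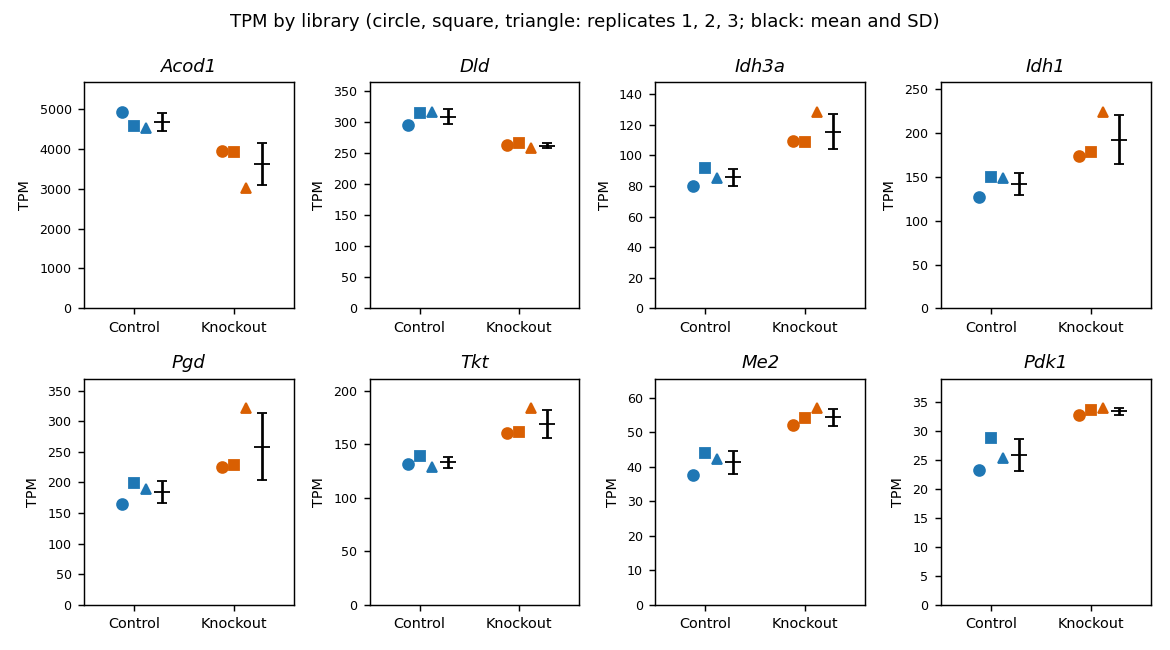
TPM of 8 enzyme genes in each library (linear axes from 0; circle, square and triangle are replicates 1, 2 and 3; black marks are the mean and SD of 3 libraries). Acod1 and Dld lie lower in all 3 Knockout libraries and the other 6 genes higher. Knockout replicate 3 (triangle) lies farthest from Control for all 8 genes, Acod1, Idh1 and Pgd among them.

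Pyruvate reaches the cycle through pyruvate dehydrogenase, which the Pdk kinases switch off, or through pyruvate carboxylase. Of the 8 tested genes of this group 4 were higher (50%, beside 18.5% of all tested rows), 0 lower (10.1% of all tested rows) and 4 not called. The group's summed TPM was 464 ± 20.7 in Control and 502 ± 11.3 in Knockout (SD, n = 3 each, Pdk2 included). Dlat, the acetyl transferase core, rose from 94.1 ± 2.59 to 106 ± 2.55 TPM. Its call was lost in 8 of 14 alternatives, among them both scalings and 5 of the 6 settings with 1 library left out. Pdha1, the catalytic subunit that the kinases phosphorylate, was not called, at 77.2 ± 0.863 and 81.8 ± 2.28 TPM, and 16.2% of its exon bases lie under exons of Map3k15 on the opposite strand. Pdhb, its partner, stood at 122, 131 and 132 TPM in Control and 116, 120 and 117 TPM in Knockout, lower in every Knockout library. It was not called as deposited (-0.12, SE 0.05, limma adjusted p = 0.0894), but it was called lower after median-of-ratios scaling (limma adjusted p = 0.0407), after upper-quartile scaling (limma adjusted p = 0.0283) and by limma-voom on recovered reads (adjusted p = 0.0360).

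Of the kinases, Pdk1, a known target of hypoxia signalling, stood at 23.3, 28.7 and 25.3 TPM in Control and 32.7, 33.5 and 33.9 TPM in Knockout. It rose 1.29-fold (0.36, SE 0.08, limma adjusted p = 0.0146), a call lost only without Control replicate 3 among 14 alternatives (limma adjusted p = 0.0546). Pdk3 rose from 43.6 ± 2.48 to 50.1 ± 0.776 TPM, and its call was lost in 10 of 14 alternatives. The log2 ratio of Pdk1 to its substrate gene Pdha1 was -1.72, -1.45 and -1.60 in Control and -1.28, -1.32 and -1.29 in Knockout, with no overlap (exact permutation p = 0.1, adjusted p = 0.15).

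The malic enzymes turn malate into pyruvate. Me2, a mitochondrial form, stood at 37.7, 44.1 and 42.1 TPM in Control and 52.1, 54.0 and 56.9 TPM in Knockout, a rise of 1.32-fold (0.39, SE 0.07, limma adjusted p = 0.00884). Me1, the cytosolic NADPH-forming form, overlapped between groups at 45.7 ± 4.95 and 48.7 ± 2.83 TPM and was not called. The log2 ratio of Me1 to Me2 was 0.10, 0.18 and 0.15 in Control and -0.17, -0.17 and -0.14 in Knockout, so Me1 was the higher transcript in Control and Me2 in Knockout libraries (exact permutation p = 0.1, adjusted p = 0.15). Pcx, pyruvate carboxylase, stood at 7.43, 7.50 and 7.19 TPM in Control and 7.65, 9.42 and 10.3 TPM in Knockout, and was not called (limma adjusted p = 0.111).

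Acod1 (chr14:103046977-103056573, GRCm38, plus strand), whose product itaconate is made in LPS-exposed macrophages and inhibits succinate dehydrogenase, was among the most abundant transcripts of every library. It stood at 4920, 4555 and 4503 TPM in Control and 3946, 3911 and 3015 TPM in Knockout. The groups did not overlap, and the mean fell from 4660 ± 227 to 3624 ± 527 TPM (SD, n = 3 each; log2 fold change -0.37, SE 0.11, limma adjusted p = 0.0378). The difference was -0.25 without Knockout replicate 3 (limma adjusted p = 0.0144) and -0.21 without both that library and Control replicate 1. The call was lost without any 1 of the 3 Control libraries (limma adjusted p = 0.116, 0.0813 and 0.0827) and with no filter on low values (limma adjusted p = 0.0519). Set against citrate synthase in the same library, the log2 ratio of Acod1 to Cs was 4.62, 4.48 and 4.54 in Control and 4.16, 4.16 and 3.68 in Knockout (difference -0.55, exact permutation p = 0.1, adjusted p = 0.15). Against Idh3a the difference was -0.80, with the same p and no overlap.

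Of the 7 pentose phosphate genes 3 were higher (42.9%, beside 18.5% of all tested rows), 0 lower (10.1% of all tested rows) and 4 not called. In the oxidative branch 1 of 3 was higher and in the non-oxidative branch 2 of 4, counts too small to compare the branches. In the oxidative branch G6pdx, glucose phosphate dehydrogenase and the entry enzyme, was not called and its groups overlapped, at 345, 393 and 364 TPM in Control and 385, 379 and 431 TPM in Knockout. Pgls, the lactonase, was not called either, at 33.0 ± 2.28 and 31.2 ± 0.875 TPM. Pgd, phosphogluconate dehydrogenase, the step that releases carbon dioxide (chr4:149149991-149166771, GRCm38, minus strand), stood at 164, 199 and 190 TPM in Control and 225, 229 and 321 TPM in Knockout. This was the largest rise of the 32 genes, 1.40-fold (0.47, SE 0.14, limma adjusted p = 0.0463), and it was 0.30 without Knockout replicate 3 (limma adjusted p = 0.0368) and 0.22 without both that library and Control replicate 1. Its call was lost in 7 of 14 alternatives, both scalings among them (limma adjusted p = 0.0688 and 0.0552). The log2 ratio of G6pdx to Pgd was 1.07, 0.99 and 0.94 in Control and 0.78, 0.73 and 0.42 in Knockout, with no overlap (exact permutation p = 0.1, adjusted p = 0.15).

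In the non-oxidative branch Tkt, transketolase (chr14:30548359-30574720, GRCm38, plus strand), stood at 132, 139 and 129 TPM in Control and 161, 162 and 184 TPM in Knockout. It rose 1.27-fold (0.34, SE 0.06, limma adjusted p = 0.0108), and by 0.27 without Knockout replicate 3 (limma adjusted p = 0.00858). Rpia, ribose phosphate isomerase, rose from 20.7 ± 0.361 to 25.0 ± 1.14 TPM, a call lost only without Control replicate 3 among 14 alternatives. Taldo1, transaldolase, which works with Tkt, stood at 369, 367 and 371 TPM in Control and 370, 379 and 432 TPM in Knockout. It was not called, and its groups overlapped. Rpe, the ribulose phosphate epimerase, was not called, at 100.5 ± 3.41 and 93.8 ± 6.74 TPM. The log2 ratio of Tkt to Taldo1 was -1.48, -1.40 and -1.52 in Control and -1.20, -1.23 and -1.23 in Knockout (exact permutation p = 0.1, adjusted p = 0.15). Exons of other genes cover 13.6% of the exon bases of G6pdx (Ikbkg, opposite strand), 17.9% of Rpe (Kansl1l, opposite strand) and 20.6% of Pgls (Fam129c, same strand) in GENCODE M21, so reads there may have been shared or dropped in counting.

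Several NADPH-forming enzyme genes, G6pdx, Pgd and Me1 among them, are textbook targets of the antioxidant factor NRF2, which binds the antioxidant response element. The letters TGACNNNGC of that element were searched on both strands in RefSeq promoter windows (GRCm38.p6, 250 bases before to 50 after each start), which matched 31 of the 33 genes. They were found in 12.4% of all 32851 windows and in 8 of the 42 windows of the enzyme genes (19.0%). Stretches of the windows of G6pdx and Me1 are shown as examples of NADPH-forming genes whose match begins before the start, chosen after the matches were seen. Each is written on the gene's strand with the match in capitals. That of Me1, which begins 6 bases before the start, also holds the AP-1 letters TGANTCA, found in 7.81% of all windows. That of G6pdx is read on the opposite strand and begins 57 bases before the start.
G6pdx (chrX:74428884-74428982, minus strand): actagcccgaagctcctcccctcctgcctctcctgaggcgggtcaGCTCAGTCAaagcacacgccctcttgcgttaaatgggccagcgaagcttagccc
Me1 (chr9:86695912-86695965, minus strand): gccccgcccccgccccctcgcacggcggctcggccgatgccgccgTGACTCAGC
Of the genes that held the letters, G6pdx, Me1, Idh3g, Dlst, Sucla2, Mdh1 and Pdhb were not called. Pgd, which rose, held them in a window where the match begins 3 bases after the start. No other called gene with a window held them. Idh3a and Me2, which rose, had no window. Whether NRF2 had a part in any difference was not tested. No match says only that these letters are not in the window.

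**Figure D4:**
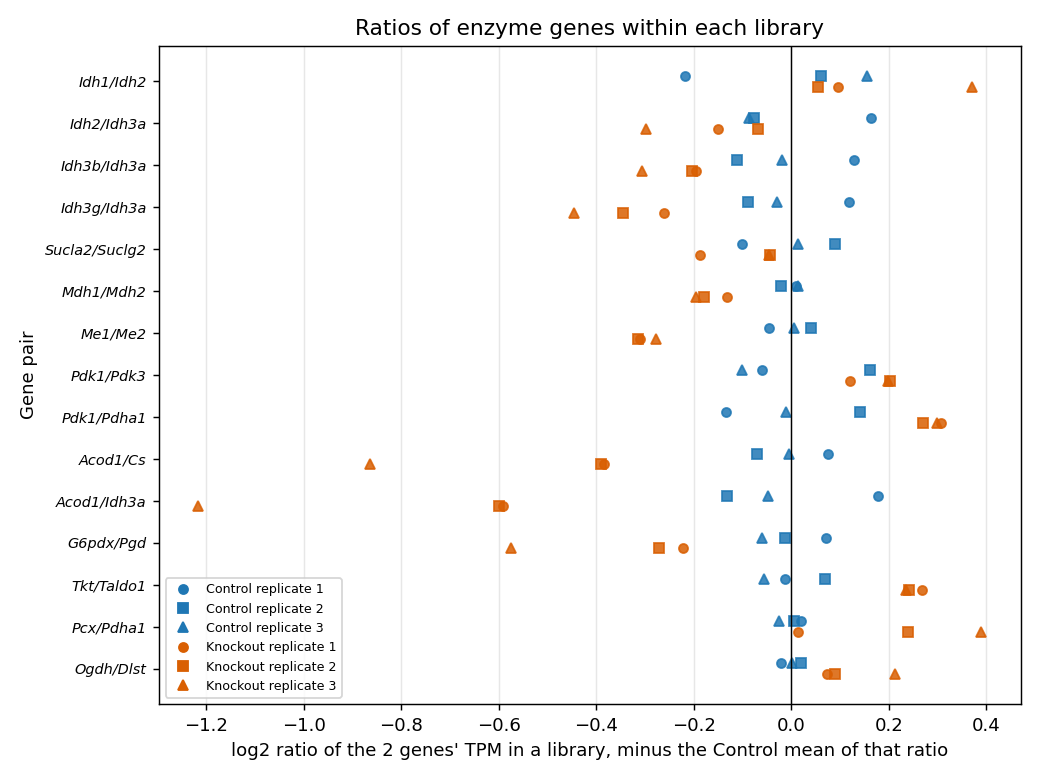
Log2 ratio of the TPM of 2 enzyme genes within each library, minus the Control mean of that ratio, for the 15 pairs compared; blue is Control, orange Knockout, and the symbol gives the replicate. Groups do not overlap in 10 pairs, among them Me1/Me2 and Tkt/Taldo1, and Acod1/Idh3a lies farthest from 0, with Knockout replicate 3 the most distant point. No such count was taken for other gene pairs.

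Of the 15 pairs, 10 had groups that did not overlap, and each of these reached the smallest p that the design allows (exact permutation p = 0.1, adjusted p = 0.15), so none passes an adjusted p of 0.05. The remaining 5 were Idh1/Idh2, Idh2/Idh3a, Sucla2/Suclg2, Pdk1/Pdk3 and Pcx/Pdha1. Among single genes, the groups did not overlap in 50% of all tested rows. No such share was taken for other gene pairs, and these pairs were chosen with earlier results known. The count of 10 is therefore no result about these pairs. No pair changed the sign of its difference when a library was left out or 1 was added to each TPM value.

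A list of 44 related genes, covering succinate dehydrogenase, carriers, transaminases and regulators of these enzymes, had 39 rows and 35 tested members. Of these 11 were higher and 5 lower, or 31.4% and 14.3% beside 18.5% and 10.1% of all tested rows, with a median log2 fold change of 0.09. The 11 became 6 without Control replicate 3, and the 5 became 2 without Control replicate 1 and 3 without Control replicate 3. Slc25a10, the mitochondrial dicarboxylate carrier, showed the largest rise (0.58, SE 0.13), from 16.1 ± 1.25 to 24.9 ± 4.92 TPM. Pdp2, a phosphatase that reactivates pyruvate dehydrogenase, rose from 16.2 ± 1.63 to 23.6 ± 2.18 TPM. Pdp1, the other catalytic phosphatase subunit, named after its values were seen, was not called, at 14.4 ± 0.259 and 13.0 ± 1.98 TPM. Pdpr, the regulatory subunit that partners Pdp1, rose from 13.4 ± 1.86 to 18.5 ± 0.481 TPM. Sdhd, a membrane anchor of succinate dehydrogenase, stood at 297, 314 and 301 TPM in Control and 399, 406 and 473 TPM in Knockout, a rise of 1.40-fold. Shpk, which phosphorylates free sedoheptulose to sedoheptulose phosphate, a pentose phosphate intermediate, showed the largest fall (-0.78, SE 0.21), from 8.82 ± 1.23 to 4.86 ± 1.54 TPM. Pck2, mitochondrial phosphoenolpyruvate carboxykinase, fell from 47.7 ± 1.83 to 31.5 ± 3.81 TPM. The transaminase genes Gpt2, which links alanine to pyruvate, and Got1, the cytosolic aspartate aminotransferase, fell by 0.50 and 0.35 on the log2 scale.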

How the data were processed

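The authors deposited 1 table of TPM for 6 libraries, all of whose value columns were mapped to samples. That the values are TPM was inferred from their column sums. Per the submitters' processing notes GRCm39 and DESeq2 were used, with no role stated; aligner and counter are not given in the sources used here. Reads were recovered by multiplying TPM by GENCODE M21 union exon lengths and dividing by each library's step. This gave whole reads (tolerance 0.02 read) for 95.7% of rows, 707 more rows at a searched length (tolerance 0.003 read), and none for 28. Coordinates are those of GRCm38 from GENCODE M21, since the deposited table holds none.

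Differences were tested with limma 3.58.1 in R 4.3.3 (lmFit, eBayes with trend and robust settings, two-sided) on log2(TPM + 1) for rows of mean TPM of at least 1, with Benjamini-Hochberg adjustment over all 13034 rows. That scale understates changes of low genes. The fit was tested on simulated data, whose changes were larger than those of the enzyme genes. Ratios within a library were compared by two-sided exact permutation (scipy 1.17.1). All 33 listed genes are named, and of the related list the 4 largest called rises and falls, with Pdp1 and unmatched markers named after their values were seen; some listed genes are not reported here. The genes, lists and pairs were chosen with earlier results of these data known.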

Additional observations from a re-analysis of the deposited data

How the results depend on the processing

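Of the 17 called enzyme genes 0 changed sign in any of the 14 alternatives, but 79 of 238 combinations of gene and alternative lost the call. Under both median-of-ratios and upper-quartile scaling 7 genes were higher, and 9 of the 17 calls were kept (Idh1, Idh2, Idh3a, Dld, Pdk1, Me2, Acod1, Tkt and Rpia). With no filter on low values 1 gene was lower. The median of the enzyme genes was 0.11 under upper-quartile scaling. With 1 library left out, or Control replicate 1 and Knockout replicate 3 together (chosen after the data were seen), 4 to 12 enzyme genes were higher and 0 to 3 lower, 6 to 11 related genes were higher and 2 to 5 lower, and 1313 to 2339 of all rows were higher and 669 to 1356 lower. The median of the enzyme genes then ran from 0.11 to 0.18. Fewer libraries also leave fewer degrees of freedom. The sign changed for 4 uncalled genes. Dlst was at -0.0021 and -0.014 under median-of-ratios and upper-quartile scaling, Suclg1 at -0.013 and -0.025, and Mdh1 at -0.031 and -0.043. By limma-voom Suclg1 was at -0.00019 and Mdh1 at -0.020. With libraries left out Suclg1 ran from -0.013 to 0.060, Mdh1 from -0.0074 to 0.020 and Me1 from -0.035 to 0.16. The cause was not tested. The share of calls that were higher was 64.7% as deposited, and 51.5% and 52.3% under the 2 scalings. With a replicate block 11 enzyme genes were higher and 2 lower, and 2331 and 1380 of all rows. The labels state no pairing of the samples. Correlations of same-numbered libraries' deviations were 0.134, -0.0766 and 0.0315, and those of differently numbered libraries ran from -0.168 to 0.168. With 3 libraries per group these values cannot decide whether samples were paired. DESeq2 on recovered reads was not run.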
